A study of Mus musculus with 6 samples.

Results

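The mouse genes of potassium channel subunits were followed here in the newborn cerebellum, with and without the transcription factor Zeb2 in the cells reached by Cre. The members are the rows of the deposited table whose gene symbol is Kcn followed by a letter from a to v and a number. This gives 80 of 23793 loci, and each of the 80 stands alone in its locus. They comprise 40 voltage-gated subunits, 15 inward rectifiers (Kcnj), 14 two-pore channels (Kcnk), 4 calcium-activated channels (Kcnn) and 7 others, which are the accessory Kcne subunits and the Kcnt and Kcnu genes of the Slo family. RNA was sequenced from whole cerebellum at postnatal day 0 in 3 conditional knockout (cKO) libraries (Zeb2 f/f; hGFAP-cre) and 3 control libraries (Zeb2 f/+; hGFAP-cre). Both groups thus carried the Cre transgene, driven by the human GFAP promoter in neural progenitors and glia, and the controls kept a wild-type Zeb2 allele beside the floxed allele. Cells outside that lineage, such as microglia and vessel cells, are not known to carry this Cre activity. Whether the libraries are from different animals is not stated in the labels, and the p-values reflect only how far these 6 libraries vary, which may be technical.

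Potassium channels let potassium leave or enter the cell down its gradient and so set the resting potential and the shape and timing of spikes. Voltage-gated channels open on depolarisation, inward rectifiers pass current best near rest, two-pore channels carry a standing leak, and Kcnn channels open when calcium rises. In the cerebellum, Kcnc subunits support fast firing, Kcnk leak channels hold granule neurons near rest, and Kcnj10 in astrocytes and Bergmann glia takes up the potassium that neurons release.

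The Zeb2 locus stood at 6.19, 3.89 and 5.81 FPKM in cKO libraries and 11.4, 9.52 and 7.995 FPKM in control libraries, with no overlap. Its log2 fold change was -0.77 (SE 0.18, limma adjusted p = 0.107), so the targeted gene itself did not pass 0.05; that p lay between 0.0463 (small-RNA loci left out) and 0.312 over the alternatives. FPKM is a value per transcript length and library size, and library sums lay between 497542 and 523234 in cKO and between 520950 and 524474 in controls. No read depth is known, so counting error on low values could not be set. The library cKO 3 was at least as close to control 1 and control 3 as to the other cKO libraries, by small margins. Over 13612 loci the log2 values of cKO 3 correlated with control 3 and control 1 at Pearson r = 0.956 and 0.953. The r was 0.952 with both other cKO libraries and 0.950 with control 2. Control 3 was deposited together with cKO 3, and control 1 shares its pattern of low values with cKO 3. Genotype and sex cannot be told apart, since Xist was high in the cKO libraries and Y-linked transcripts in the control libraries. The summed level of 8 granule neuron markers was 638 to 704 FPKM in cKO and 679 to 753 FPKM in controls, and that of 7 Purkinje cell markers was 438 to 495 FPKM in cKO and 402 to 437 FPKM in controls, so the markers of the labelled tissue were present. In bulk tissue, fewer cells of a type and less RNA per cell cannot be told apart.

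Potassium channel genes spanned the whole range of expression. Of the 80, 15 averaged at least 10 FPKM over the 6 libraries, 34 lay between 1 and 10, 24 between 0.1 and 1, and 7 under 0.1. Kcnk9, an acid-sensitive leak channel, ranked 2 by mean FPKM (39.9 ± 2.79 and 33.2 ± 1.01 FPKM in cKO and controls), and Kcnc1 ranked 3 (26.3 ± 0.898 and 24.9 ± 1.26 FPKM in cKO and controls; SD, n = 3 each). Kcnd3, Kcnk1 and Kcnd2 ranked 4, 5 and 6, at means over all libraries of 24.6, 24.0 and 21.7 FPKM, and neighbours among ranks 3 to 6 did not differ beyond the spread of the libraries. At the other end, Kcnk16 was listed at 0 in all 6 libraries, and Kcnj1 at 0 in 5 of 6. A minimum of 1 FPKM in at least 3 of the 6 libraries left 49 members for testing. Of the 49, Kcnn4 and Kcnv1 were under 1 FPKM in some libraries.

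**Figure D1:**
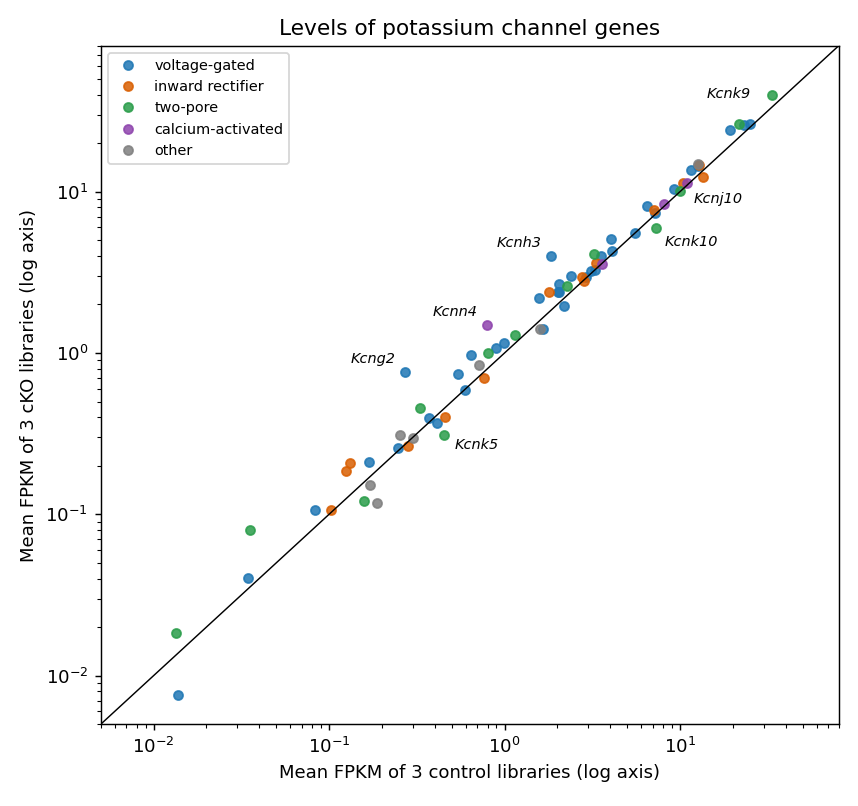
Mean FPKM of each potassium channel gene in 3 cKO libraries (vertical) against 3 control libraries (horizontal), both axes logarithmic, coloured by class, with the line of equality; 74 of the 80 members are drawn, and Kcnk16 and Kcnj1, listed at 0 in at least a whole group, are not among them. Most points lie near the line, while Kcnh3, Kcng2 and Kcnn4 lie above it and Kcnk10 and Kcnk5 below it.

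No member passed the threshold between the genotypes, while small differences leaned towards higher values in cKO. At a limma adjusted p of at most 0.05, 0 of the 49 tested members passed, against 78 of all 13612 loci (0.573%; 0.242% higher and 0.331% lower). At an unadjusted p under 0.05 stood 15 members (30.6%), against 17.6% of all loci. Of these, 14 (28.6%) were higher in cKO, against 7.82% of all loci, and 1 was lower, against 9.79%. In 14 members (28.6%) every cKO value lay above every control value, against 10.3% of all loci, and in Kcnk10 every cKO value lay below, against 13.6%. The log2 fold change was above 0 in 40 of the 49 tested members (81.6%), against 47.0% of all loci. The median log2 fold change was 0.11 over the 49, against -0.0095 over all tested loci, and it stayed between 0.098 and 0.135 with each library left out in turn. In those fits 35 to 42 members were above 0, against 46.4 to 48.3% of all loci, and 10 to 12 were higher at an unadjusted p under 0.05. These counts describe genes that share the same 6 libraries, and no test was made of the list as a whole.

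**Figure D2:**
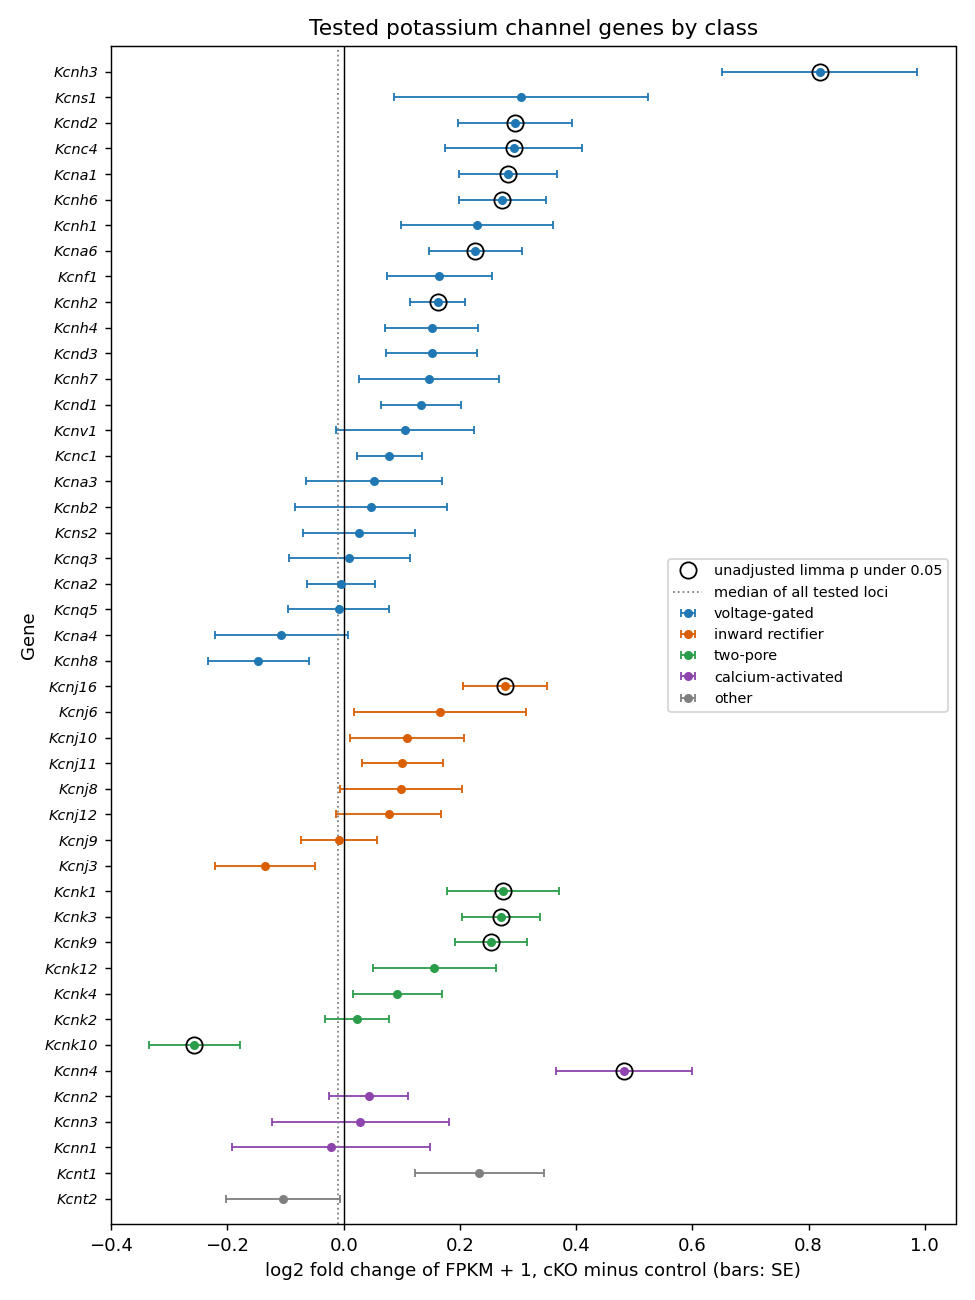
Log2 fold change of FPKM + 1, cKO minus control, with its SE for 45 of the 49 tested potassium channel genes, grouped and coloured by class. Ringed points have an unadjusted limma p under 0.05; 12 of these lie right of 0 and Kcnk10 left of it, and the dotted line is the median of all tested loci (-0.0095).

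The size of these differences was modest when the FPKM of a class was added up. All 40 voltage-gated genes summed to 267, 266 and 252 FPKM in cKO libraries 1 to 3, against 229, 232 and 234 FPKM in control libraries 1 to 3. The 14 two-pore genes summed to 87.9, 95.1 and 93.8 FPKM in cKO, against 81.8, 78.8 and 81.1 FPKM in controls. In both classes every cKO library lay above every control library, by 1.13-fold and 1.15-fold in the mean. Abundant genes weigh most in such a sum. In the two-pore class these were Kcnk9 and Kcnk1, and the groups of Kcnk1 overlapped. Kcnk10, of the same class, was lower in every cKO library. How often sums of other sets of genes separate the groups was not tested. The inward rectifiers summed to 61.9, 61.1 and 55.7 FPKM in cKO and 55.5, 55.05 and 58.96 FPKM in controls, and the calcium-activated genes to 26.8, 24.3 and 22.98 FPKM in cKO and 22.7, 22.5 and 25.1 FPKM in controls, and these overlapped. The summed level of the 7 Purkinje cell markers was higher in every cKO library, that of the 5 GABAergic interneuron markers was 142 to 150 FPKM in cKO and 122 to 140 FPKM in controls, and that of the 6 granule neuron progenitor markers was 150 to 166 FPKM in cKO and 211 to 232 FPKM in controls. The part of these cell types in the sums was not tested.

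**Figure D3:**
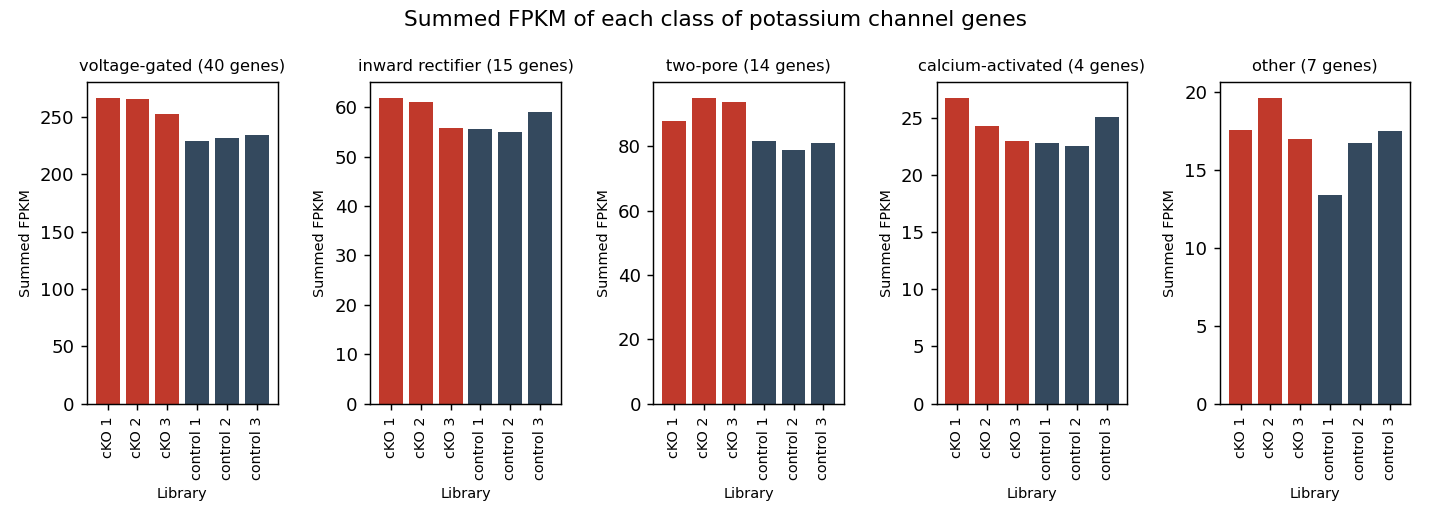
Summed FPKM of each class of potassium channel genes in each library, cKO libraries left in red and control libraries right in dark grey, with bars from 0. The voltage-gated and two-pore sums are higher in all 3 cKO libraries than in any control library, and the other sums overlap.

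Among tested voltage-gated genes, Kcnh3 had the highest log2 fold change. It encodes a subunit of the EAG-related family that is known from forebrain neurons. Its level was 3.87, 4.78 and 3.31 FPKM in cKO libraries and 1.45, 1.57 and 2.51 FPKM in control libraries. Every cKO value lay above every control value, with control 3 the highest of its group and cKO 3 the lowest of its own. The means were 3.98 ± 0.740 FPKM in cKO and 1.84 ± 0.584 FPKM in controls (SD, n = 3 each), a ratio of 2.16. The log2 fold change was 0.82 (SE 0.17, limma adjusted p = 0.0878). That p ranged from 0.0315 to 0.288 over the alternatives, and Kcnh3 passed with robust variance estimation (0.0315) and with small-RNA loci left out (0.0369), settings at which 2.47% and 2.44% of all loci passed. The difference was 0.82 log2 units both between cKO 3 and control 1 and among the other 4 libraries, which are the 2 sets with a shared pattern of low values. It was 1.08 in the first deposit and 0.30 between cKO 3 and control 3, the second deposit.

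The other Kcnh genes differed less. Kcnh6 and Kcnh2, both subunits of ERG channels, were at 2.44, 2.83 and 2.77 FPKM and at 14.0, 14.4 and 14.6 FPKM in cKO libraries, against 1.97, 2.18 and 1.98 FPKM and 12.6, 12.6 and 12.9 FPKM in control libraries. Neither gene's groups overlapped, and their log2 fold changes were 0.27 (SE 0.08, limma adjusted p = 0.149) and 0.16 (SE 0.05, limma adjusted p = 0.168). Kcnh1, Kcnh4 and Kcnh7 had log2 fold changes of 0.23, 0.15 and 0.15 with overlapping groups. Kcnh8 was the only tested gene of the family below 0, at -0.15 (SE 0.09), and its groups overlapped. Kcnh5 was not tested, with a highest value of 0.844 FPKM.

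Kcna1, Kcna5 and Kcna6, shaker-type subunits whose genes lie side by side on chromosome 6 (GRCm38, minus strand), were each higher in all cKO libraries. Of all tested loci 10.3% were higher without overlap, and of untested loci with a value above 0, 9.01%. Kcna5 and Kcna6 were described after their values were seen, and whether the neighbours differ together was not tested. Kcna1, an axonal subunit mutated in human episodic ataxia (126640397 to 126646384), was at 5.36, 4.88 and 5.05 FPKM in cKO and 3.61, 3.93 and 4.53 FPKM in controls. Kcna6 (126708329 to 126740674) was at 14.2, 12.4 and 14.3 FPKM in cKO and 12.2, 10.5 and 11.9 FPKM in controls. Kcna5 (126532551 to 126535412), too low to be tested, was at 0.830, 0.954 and 1.15 FPKM in cKO and 0.612, 0.554 and 0.770 FPKM in controls. The log2 fold changes of Kcna1 and Kcna6 were 0.28 (SE 0.08) and 0.23 (SE 0.08), and neither passed (limma adjusted p = 0.172 and 0.227). In a second group of neighbours, on chromosome 3, Kcna2 and Kcna3 had log2 fold changes of -0.0043 and 0.05, with signs that turned when libraries or the scaling were changed, and Kcna10 was at most 0.0416 FPKM. Kcna4 had a log2 fold change of -0.11, with overlapping groups, and Kcna7 was at most 0.0514 FPKM.

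Zeb2 is known to bind the E-box CACCTG, so the RefSeq promoters (GRCm38.p6, 250 bases before to 50 after the start) of Kcna5 and Kcna6 are shown, with Kcna2, whose log2 fold change was near 0, and Kcnn4, which has a larger ratio, from other chromosomes. The letters CACCTG, or CAGGTG on the other strand, are in capitals; each is a form of the wider E-box CANNTG. Kcna1 has no entry.
Kcna5 (chr6:126535506-126535805, minus strand): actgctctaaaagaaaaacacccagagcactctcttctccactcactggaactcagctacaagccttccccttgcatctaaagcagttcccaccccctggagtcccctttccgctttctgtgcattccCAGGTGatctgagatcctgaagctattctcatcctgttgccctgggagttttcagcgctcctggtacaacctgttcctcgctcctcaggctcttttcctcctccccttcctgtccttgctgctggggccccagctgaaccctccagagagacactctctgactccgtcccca
Kcna6 (chr6:126740625-126740924, minus strand): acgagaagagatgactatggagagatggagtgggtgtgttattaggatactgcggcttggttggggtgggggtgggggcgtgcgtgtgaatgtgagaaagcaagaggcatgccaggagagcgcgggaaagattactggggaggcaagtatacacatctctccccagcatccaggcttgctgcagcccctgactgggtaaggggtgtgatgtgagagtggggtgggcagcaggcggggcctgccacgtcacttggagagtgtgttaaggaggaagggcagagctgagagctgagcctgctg
Kcna2 (chr3:107101317-107101616, plus strand): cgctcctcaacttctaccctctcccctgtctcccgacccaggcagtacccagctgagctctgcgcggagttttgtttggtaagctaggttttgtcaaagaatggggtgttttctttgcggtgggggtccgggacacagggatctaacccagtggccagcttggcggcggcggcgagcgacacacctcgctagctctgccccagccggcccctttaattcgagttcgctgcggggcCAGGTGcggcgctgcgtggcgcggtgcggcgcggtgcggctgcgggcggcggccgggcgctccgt
Kcnn4 (chr7:24370013-24370312, plus strand): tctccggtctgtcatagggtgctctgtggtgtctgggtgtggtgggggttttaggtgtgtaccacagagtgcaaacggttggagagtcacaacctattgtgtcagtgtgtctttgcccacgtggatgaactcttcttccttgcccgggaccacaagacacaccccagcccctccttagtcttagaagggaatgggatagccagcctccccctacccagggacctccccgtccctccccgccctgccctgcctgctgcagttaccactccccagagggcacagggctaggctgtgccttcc

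The Kcna5 promoter holds the motif once, starting at -122 from the start site, and so does that of Kcna2, starting at -15. The windows of Kcna6, Kcnn4, Kcna3 and Kcna10 do not hold these letters. Promoter entries were found for 56 of the 80 members, and 17 of the 56 (30.4%) held the motif in at least 1 window, against 22.6% of 27025 genes. Of the 14 tested members that were higher in every cKO library, 6 had an entry and 0 of the 6 held it, and of the other tested members 9 of 27 did. Kcna5, which was also higher in every cKO library and holds the motif, was not tested and is outside these counts. A match is a description of the letters. Only these letters were searched, so the absence of a match says nothing about binding to other letters within the windows or about binding elsewhere.

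Genes of other voltage-gated families differed by small amounts. Kcnq3 and Kcnq5, subunits of channels that carry the M-current, had log2 fold changes of 0.0093 (SE 0.10) and -0.0085 (SE 0.09), and both signs depended on single libraries. They do not stand for their family: of the 4 tested Kcnq genes, 3 had a log2 fold change above 0, and 1 was higher at an unadjusted p under 0.05, without overlap. Over all tested loci, 47.0% were above 0, 7.82% were higher at an unadjusted p under 0.05, and 10.3% were higher without overlap. With so few genes in a family, its counts beside these shares are a description only. All 3 tested Kcnc genes were above 0, 2 of them at an unadjusted p under 0.05 and 1 without overlap. Of these, Kcnc4 and Kcnc1 had log2 fold changes of 0.29 and 0.08 with overlapping groups, and Kcnc2, under the minimum, was at 0.932 to 1.18 FPKM in cKO and 0.870 to 0.952 FPKM in controls. The 3 Kcnd genes, which carry the transient A-type current, had log2 fold changes of 0.29 (Kcnd2), 0.15 (Kcnd3) and 0.13 (Kcnd1). Kcnd2 was at 26.3, 24.4 and 21.4 FPKM in cKO and 18.3, 18.2 and 21.7 FPKM in controls, and cKO 3 lay inside the control range. Kcnd1, the member on the X chromosome, was at 3.77, 4.23 and 4.02 FPKM in cKO and 3.36, 3.73 and 3.596 FPKM in controls, without overlap, and for an X-linked gene the tie between genotype and sex applies directly.

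Silent subunits, which form no channel alone and modify Kcnb channels, included the highest ratio of all members. Kcng2 stood at 0.794, 0.824 and 0.683 FPKM in cKO libraries and at 0.198, 0.297 and 0.318 FPKM in control libraries. Each cKO value was above every control value, with means of 0.767 ± 0.0743 and 0.271 ± 0.0640 FPKM in cKO and controls (SD, n = 3 each), a ratio of 2.83. It was under 1 FPKM throughout and so was not among the tested loci. In a fit without that minimum, the log2 fold change of FPKM + 1 was 0.48 (SE 0.05, unadjusted p = 1.16e-04, adjusted p = 0.0583 by limma), and the pseudocount of 1 understates the change of so low a gene. Kcnb2, a channel-forming partner, had a log2 fold change of 0.05, and its sign depended on single libraries. The other silent subunits that were tested, Kcns1, Kcnf1, Kcnv1 and Kcns2, had log2 fold changes of 0.31, 0.16, 0.11 and 0.026, all with overlapping groups. Kcng1, Kcng3, Kcng4, Kcns3 and Kcnv2 were under the minimum and overlapped too. Among the 31 untested members, 2 were higher (Kcng2 and Kcna5) and 1 lower (Kcnk5) in every cKO library. Of 6240 untested loci with a value above 0, 9.01% were higher and 3.06% lower, so these counts lie near those shares.

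**Figure D4:**
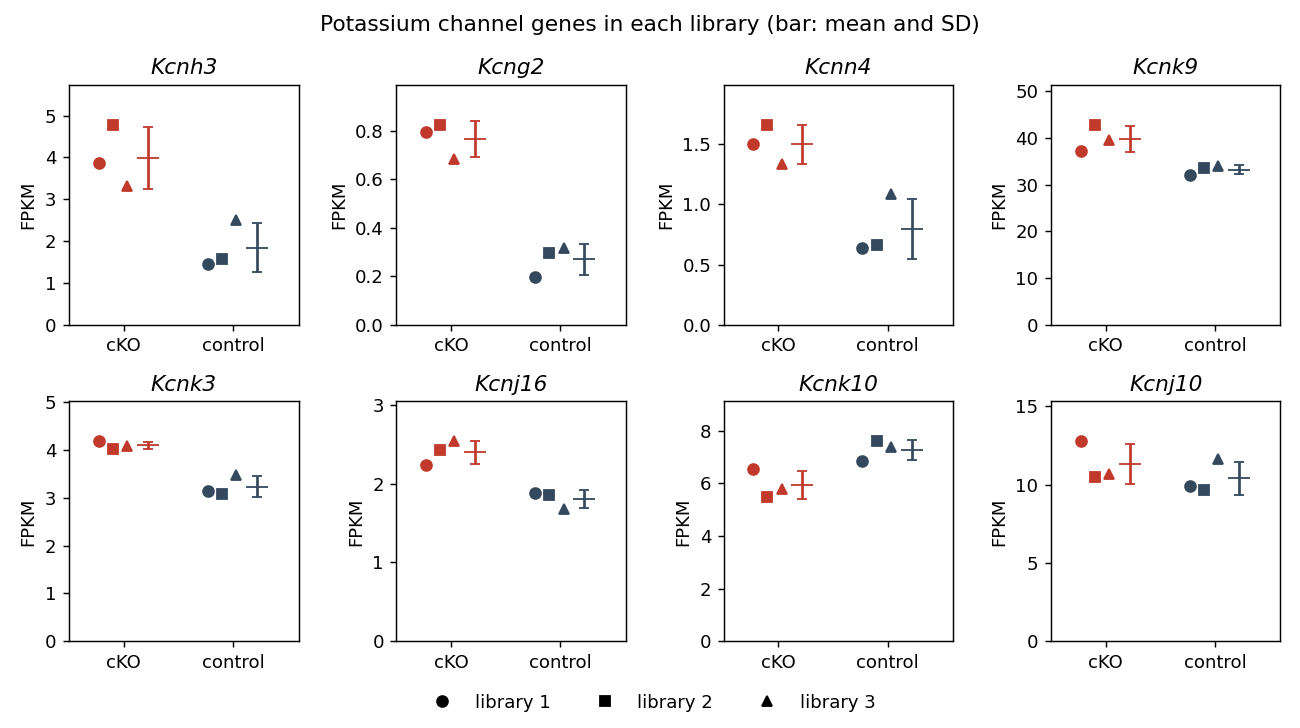
FPKM of 8 potassium channel genes in each cKO library (left, red) and control library (right, dark), with the mean and SD of 3 libraries beside the points and each vertical axis starting at 0. Kcnh3, Kcng2, Kcnn4, Kcnk9, Kcnk3 and Kcnj16 are higher in every cKO library, Kcnk10 is lower in every cKO library, and the Kcnj10 values overlap.

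The glial inward rectifier Kcnj10 did not differ beyond the spread of the libraries. It stood at 12.8, 10.5 and 10.7 FPKM in cKO libraries and at 9.91, 9.65 and 11.6 FPKM in control libraries. The groups overlapped, since control 3 was above cKO 2 and cKO 3. The means were 11.3 ± 1.26 FPKM in cKO and 10.4 ± 1.07 FPKM in controls (SD, n = 3 each), and the log2 fold change was 0.11 (SE 0.10, limma adjusted p = 0.618; exact two-sided permutation p = 0.5, with 0.1 the smallest that 3 against 3 can give). It was 0.026 without cKO 1 and 0.185 without control 3, so its size rested on those libraries. Kcnj16, which joins Kcnj10 in mixed glial channels, was at 2.24, 2.42 and 2.53 FPKM in cKO and 1.88, 1.86 and 1.68 FPKM in controls, without overlap. Its log2 fold change was 0.28 (SE 0.07, limma adjusted p = 0.136), and it lay between 0.245 and 0.311 with each library left out in turn.

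Genes that work beside Kcnj10 in glial potassium clearance differed in both directions. Of 10 tested partners 0 passed by limma (0.573% of all loci), 5 had an unadjusted p under 0.05 (17.6% of all loci), and 4 had a log2 fold change above 0 (47.0% of all loci). Gja1, the gap junction protein that links astrocytes, was at 40.0 ± 1.75 FPKM in cKO and 27.7 ± 3.37 FPKM in controls (log2 fold change 0.52, SE 0.09, limma adjusted p = 0.0723). Atp1b2, a sodium pump subunit of glia, was at 105 ± 7.43 FPKM in cKO and 84.5 ± 5.16 FPKM in controls (log2 fold change 0.31, SE 0.07, limma adjusted p = 0.104). The water channel gene Aqp4 was at 6.67 ± 1.24 FPKM in cKO and 13.4 ± 3.05 FPKM in controls (log2 fold change -0.90, SE 0.17, limma adjusted p = 0.0788). The glutamate transporter gene Slc1a3 had a log2 fold change of -0.81 (SE 0.28, limma adjusted p = 0.221). It was at 206, 92.9 and 182 FPKM in cKO and 302, 260 and 244 FPKM in controls. With each library left out in turn, its log2 fold change lay between -1.03 and -0.464, so its size depended on single libraries. In these 4 genes the groups did not overlap. Gja1 and Aqp4 passed with small-RNA loci left out (limma adjusted p = 0.0274 and 0.0292), where 2.44% of all loci passed. Aqp4 also passed with the processing set, a grouping inferred from low values, as covariate (limma adjusted p = 0.0165), where 60 of 13612 loci passed. Gja1 also passed with robust variance estimation (limma adjusted p = 0.0208), where 2.47% of all loci passed. A list of 12 astrocyte and Bergmann glia markers shares Slc1a3, Aqp4 and Gja1 with these partners, so it is not separate from them. Of the 12, 3 had a log2 fold change above 0, and 2 passed as lower (0.331% of all loci). Without overlap, 2 were higher in cKO (10.3% of all loci) and 5 lower (13.6%). Their summed level was 2034 to 2174 FPKM in cKO and 2187 to 2231 FPKM in controls. Most of that sum was Fabp7, at 1547 to 1599 FPKM in cKO and 1524 to 1624 FPKM in controls. The part of glial content in the Kcnj10 and Kcnj16 values was not tested.

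The neuronal inward rectifiers showed no common direction. Kcnj3, Kcnj6 and Kcnj9, which form channels opened by G proteins, had log2 fold changes of -0.14 (SE 0.09), 0.17 (SE 0.15) and -0.0082 (SE 0.07). Kcnj3 was at 11.3, 14.1 and 11.5 FPKM in cKO and 13.7, 13.6 and 13.4 FPKM in controls, where cKO 2 lay above all controls and both other cKO libraries below them. Kcnj6 was at 17.4, 15.0 and 11.7 FPKM in cKO and 11.2, 13.3 and 14.3 FPKM in controls. The pores of ATP-sensitive channels, Kcnj11 and Kcnj8, had log2 fold changes of 0.10 each, and Kcnj12 had 0.08, all with overlapping groups. Kcnj8 marks pericytes, and the 9 pericyte and smooth muscle markers summed to 58.9 to 69.9 FPKM in cKO and 57.2 to 60.5 FPKM in controls. The median of the 8 tested inward rectifiers was 0.10, or 0.036 without control 2. The other 7 were under the minimum, with a highest value of 0.841 FPKM (Kcnj2), and their groups overlapped. Kcnj13, a channel of choroid plexus, was among them at 0.118 to 0.356 FPKM in cKO and 0.0579 to 0.219 FPKM in controls.

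Two-pore genes held members that differed in opposite directions. Kcnk9 and Kcnk3, the acid-sensitive leak channels of cerebellar granule neurons, were both higher in every cKO library. Kcnk9 was at 37.3, 42.8 and 39.5 FPKM in cKO and 32.1, 33.6 and 34.0 FPKM in controls (log2 fold change 0.25, SE 0.06, limma adjusted p = 0.120). Kcnk3 was at 4.17, 4.02 and 4.08 FPKM in cKO and 3.13, 3.07 and 3.48 FPKM in controls (log2 fold change 0.27, SE 0.07, limma adjusted p = 0.120). Within each of the 2 sets that share a pattern of low values, and within each deposit, both differences lay between 0.18 and 0.31 log2 units. Beside them, the log2 fold changes of the 7 tested granule neuron markers had their median at -0.026, and 2 of the 7 were positive, against 47.0% of all loci. The part of granule neurons in the Kcnk9 and Kcnk3 values was not tested. Kcnk1, a weak inward-rectifying leak channel, was at 23.8, 27.2 and 28.0 FPKM in cKO and 24.3, 19.5 and 21.2 FPKM in controls, where control 1 lay above cKO 1 (log2 fold change 0.27, SE 0.10, limma adjusted p = 0.222).

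Kcnk10, a stretch- and lipid-sensitive channel of the TREK group, was the only tested member lower in every cKO library. It was at 6.54, 5.46 and 5.80 FPKM in cKO and 6.84, 7.585 and 7.39 FPKM in controls, with a log2 fold change of -0.26 (SE 0.08, limma adjusted p = 0.177). It lay between -0.319 and -0.208 with each library left out in turn. Its relatives Kcnk2 and Kcnk4 had log2 fold changes of 0.023 and 0.09 with overlapping groups, and that of Kcnk2 was -0.0074 without cKO 3. Kcnk5 was at 0.375, 0.317 and 0.245 FPKM in cKO and 0.510, 0.384 and 0.462 FPKM in controls, lower in every cKO library and under the minimum for a test. Kcnk12 had a log2 fold change of 0.16 with overlapping groups. Kcnk13, a leak channel of microglia, overlapped at 0.787 to 1.12 FPKM in cKO and 0.661 to 0.966 FPKM in controls, and Kcnk6, Kcnk7, Kcnk15 and Kcnk18 reached at most 0.544 FPKM (Kcnk6).

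Of the calcium-activated genes, Kcnn4 stood apart from its relatives. It encodes the intermediate-conductance channel known from blood cells and microglia, and it was at 1.50, 1.66 and 1.33 FPKM in cKO and 0.640, 0.662 and 1.09 FPKM in controls. Every cKO value lay above every control value, with a ratio of means of 1.88 (log2 fold change 0.48, SE 0.12, limma adjusted p = 0.119). Kcnn4 passed the minimum through its 3 cKO values and control 3. The difference was 0.16 log2 units between cKO 3 and control 3 and 0.64 in the first deposit. Beside it, the log2 fold change was positive in all 8 tested microglia markers (median 0.33), against 47.0% of all loci. By limma 1 of them passed the threshold as higher, against 0.242% of all loci. The 9 microglia markers summed to 51.1 to 55.9 FPKM in cKO and 38.8 to 39.6 FPKM in controls, and none was at 0. The part of microglia in the Kcnn4 value was not tested. The small-conductance genes Kcnn2, Kcnn3 and Kcnn1, which shape the afterhyperpolarisation of neurons, were at 11.3 ± 0.544, 8.37 ± 1.85 and 3.54 ± 0.803 FPKM in cKO and 10.9 ± 0.786, 8.12 ± 1.16 and 3.60 ± 0.760 FPKM in controls (SD, n = 3 each). Their log2 fold changes were 0.04, 0.028 and -0.021, and the last 2 turned sign with the libraries included. The median of the 4 was 0.036, and it was 0.0028 without cKO 1 and 0.122 without cKO 3.

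Among the remaining members, Kcnt1, a sodium-activated channel, was at 14.7, 15.7 and 14.4 FPKM in cKO and 10.4, 13.2 and 14.3 FPKM in controls. The groups did not overlap, but cKO 3 and control 3 were 0.010 log2 units apart (log2 fold change 0.23, SE 0.11, limma adjusted p = 0.336), and without control 1 it was 0.109. Kcnt2 had a log2 fold change of -0.10 with overlapping groups. Kcnu1, known from sperm, and Kcne1 to Kcne4 were under the minimum and overlapped, with a highest value of 1.004 FPKM for Kcnu1 and 0.606 FPKM for Kcne3.

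Accessory subunits and partner channels outside the symbol rule were described beside the members. Of 25 such genes, 22 were tested and 0 passed by limma, against 0.573% of all loci. An unadjusted p under 0.05 was found in 9 of the 22, against 17.6% of all loci, and a log2 fold change above 0 in 17, against 47.0%, with a median of 0.09. Kcnmb2, an inactivating subunit of the large-conductance calcium-activated channel, was at 2.46, 2.09 and 1.97 FPKM in cKO and 1.28, 1.45 and 1.49 FPKM in controls (log2 fold change 0.40, SE 0.09, limma adjusted p = 0.0961). Kcnmb4, the neuronal subunit of the same channel, was at 22.2, 23.1 and 23.3 FPKM in cKO and 25.8, 26.8 and 24.6 FPKM in controls (log2 fold change -0.16, SE 0.05, limma adjusted p = 0.191), and the pore gene Kcnma1 overlapped (log2 fold change 0.08). Hcn3, a cation channel opened by hyperpolarisation, had a log2 fold change of 0.19 (SE 0.05, limma adjusted p = 0.154), and Lrrc55, another accessory subunit of the large-conductance channel, 0.28 (SE 0.08, limma adjusted p = 0.182). In Kcnmb2, Kcnmb4, Hcn3 and Lrrc55 the groups did not overlap. An antisense locus stands beside Kcnmb4, Kcnd3 and Kcnq1 in the table, and since the strand setting is not given, reads of each pair cannot be told apart with certainty.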

How the data were processed

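Total RNA of newborn mouse cerebellum was extracted with Trizol and made into TruSeq libraries, per the labels' protocols. CASAVA, TopHat, Cufflinks and build mm10 are named for the authors' processing, per the submitters' processing notes. The deposited values carry no unit and were taken as FPKM, since Cufflinks locus names and the value range point to it. Versions, annotation, strand setting and depth of the libraries were not given in the sources used here. Groups and numbers follow the titles (the description of cKO 1 carries another number). Values were taken as log2(FPKM + 1). The 13612 loci that reached 1 FPKM in 3 or more of the 6 libraries entered limma 3.58.1 in R 4.3.3 (trend, two-sided), with Benjamini-Hochberg adjustment over all of them and a threshold of 0.05. In a simulation of the cKO against control comparison on 13612 loci, the fit recovered 70 of 100 shifts of 0.5 (log2) and 95 of 100 shifts of 1, and 3.51% of its 171 calls were false. The simulated noise was independent for each locus and library, without differences of deposit, processing set or sex. These rates therefore need not hold for the real libraries. Shifts under 0.5, where most members lay, were not simulated. Values were also taken within deposits and processing sets. Deposits are the accession runs of the labels (controls 1 and 2 with cKO 1 and 2; control 3 with cKO 3). Processing sets come from low values: in 7 of 15 pairs of libraries, 24.2 to 32.9% of ratios under 0.1 FPKM fell in a window of 0.06 log2 units, against 7.35 to 8.90% in the others, which puts control 1 with cKO 3. Members, lists, tests and alternatives were chosen with earlier results of these data known. The rule named members past the threshold, Kcnj10, members on X and, per class, up to 4 tested members of smallest p and up to 3 of highest mean (23 reported); 22 other tested members and the untested members and Kcnma1 were described after their values were seen. Values of 4 tested members are not reported singly here and enter only counts, sums and medians. Of each partner list the 4 genes of smallest p were named. Coordinates are GENCODE M21 (GRCm38), and all 80 members matched. Tables and figures were made with matplotlib 3.10.9, pandas 2.3.3 and numpy 2.4.6 in Python 3.11.15, and sample weights with statmod 1.5.0.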

Additional observations from a re-analysis of the deposited data

How the results depend on the processing

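Of 829 log2 fold changes of 45 tested members under 19 alternatives, 797 kept their direction and side of the threshold, 2 (both Kcnh3) passed it and 30 turned sign, in 10 members with values near 0. The number of calls over all loci, 78 as reported, was 15 with the replicate number as a block, 22 with the deposit as a covariate, 28 without a filter, 30 at a mean of at least 5 FPKM, 326 with small-RNA loci left out, 336 with robust variance estimation, 409 at an adjusted p of 0.1, 21, 27 and 44 without cKO 1, 2 and 3, and 33, 28 and 55 without control 1, 2 and 3. The reported 0 members called became 1 of 49 (Kcnh3) with small-RNA loci left out, with robust variance estimation and at 0.1. At these settings 2.44%, 2.47% and 3.0% of all loci passed. Why these settings raise the calls was not tested. At a mean of at least 5 FPKM, only 22 members were tested. Of these, 7 were higher at an unadjusted p under 0.05, and 19 (86.4%) were above 0, against 45.3% of 10553 loci. Without a filter, 58 of 79 members (73.4%) were above 0, against 50.7% of 19852 loci, and 2 were lower at that p. With a library left out, 1 to 2 were lower at that p, 10 to 12 were higher, and 35 to 42 were above 0. Same-numbered cKO and control libraries shared deviations at r = -0.027, 0.037 and 0.049, within the range of the other pairs (-0.122 to 0.092). These values show no pairing by number. They cannot exclude it, since deviations from the mean of only 3 libraries are not independent. No member was called with the replicate block (12 higher at an unadjusted p under 0.05).

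The median of all tested members was 0.15 at a pseudocount of 0.1, 0.14 at 0.5, 0.074 without a filter, 0.147 at a mean of at least 5 FPKM, 0.132 with median scaling, and 0.098 to 0.135 with a library left out. The voltage-gated median was 0.117 without a filter and 0.114 to 0.152 with a library left out, that of inward rectifiers 0.036 to 0.112, and that of two-pore genes 0.215 at a pseudocount of 0.1, 0.092 without a filter, 0.214 with sample weights and 0.123 to 0.230 with a library left out. The median of the remaining class was 0.233 at a mean of at least 5 FPKM. With a library left out, values that turned sign ranged from -0.024 to 0.019 for Kcna2, -0.050 to 0.135 for Kcna3, -0.063 to 0.117 for Kcnb2, -0.037 to 0.014 for Kcnj9, -0.0074 to 0.055 for Kcnk2, -0.167 to 0.120 for Kcnn1, -0.128 to 0.131 for Kcnn3, -0.078 to 0.113 for Kcnq3, -0.055 to 0.061 for Kcnq5 and -0.022 to 0.119 for Kcns2. Median scaling gave 0.017 for Kcna2, 0.0103 for Kcnj9 and 0.0108 for Kcnq5, quantile normalization 0.020 for Kcna2, and sample weights 0.00096 for Kcna2, -0.029 for Kcnn3 and -0.0014 for Kcnq3. With no depth known, members under 1 FPKM are the least certain.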
